A study of Mus musculus with 32 samples.

Results

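Hes1, Hes5, Hes6, Hey1, Hey2 and Heyl are among the Hes and Hey repressors measured beside Hes7 in mouse presomitic mesoderm (PSM) grown in culture. They were taken by gene symbol from the table of raw counts, where they make up 6 of 21886 rows, and Hes7 itself was left out because it served as the clock against which they were read. The PSM, the unsegmented tissue from which somites form, was derived from 1 line of mouse epiblast stem cells (AES0204) that carries a luciferase reporter of Hes7. These pluripotent cells were put in medium with bFGF, CHIR99021, which blocks GSK3, LDN193189, which blocks BMP receptors, and SB431542, which blocks TGF-β receptors, and CHIR99021 was lowered later in the culture. Both time courses, named Ex5 and Ex4, share this line and this treatment. Each had 16 dishes, each of which was frozen at a different time and gave 1 RNA-seq library, from 165 to 425 min in Ex5 and from 155 to 405 min in Ex4. The stated aim of the series was to find components of the mouse segmentation clock.

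Hes and Hey proteins are basic helix-loop-helix repressors. When a Notch receptor is activated by a ligand on a neighbouring cell, its intracellular domain enters the nucleus, joins the DNA-binding protein RBPJ and switches on Hes and Hey genes. The Hes and Hey proteins then recruit co-repressors of the Groucho/TLE family and repress other genes and, in several cases, their own, and this delayed negative feedback is known to make Hes1, Hes5 and Hes7 oscillate in the mouse PSM. Hes6 is the exception in the family, since it binds poorly to the usual Hes sites and is known to antagonise Hes1, and the Hey genes are best known for their roles in the heart and vessels.

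For the 3 members found in the RefSeq table of gene starts (4 starts, GRCm38.p6), the 250 bases before the start are shown for Hes5, which cycled strongly, Hey2, which differed most between the courses, and Hes6, which did not pass the test for a cycle. Each is written 5′ to 3′ on the gene's strand, and capitals mark the RBPJ core, TGGGAA, or its reverse complement, TTCCCA.
Hes5 (chr4:154960673-154960922, plus strand): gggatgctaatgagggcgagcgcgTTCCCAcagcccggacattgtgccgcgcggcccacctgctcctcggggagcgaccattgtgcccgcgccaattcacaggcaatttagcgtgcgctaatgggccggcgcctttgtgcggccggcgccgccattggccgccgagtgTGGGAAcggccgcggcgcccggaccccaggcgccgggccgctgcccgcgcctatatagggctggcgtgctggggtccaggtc
Hey2 (chr10:30842784-30843033, minus strand): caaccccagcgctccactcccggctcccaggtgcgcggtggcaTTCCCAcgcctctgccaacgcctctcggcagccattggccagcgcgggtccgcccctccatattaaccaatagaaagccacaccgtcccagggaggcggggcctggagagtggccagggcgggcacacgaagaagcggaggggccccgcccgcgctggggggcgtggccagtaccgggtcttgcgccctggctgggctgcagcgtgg
Hes6 (chr1:91414039-91414288, minus strand): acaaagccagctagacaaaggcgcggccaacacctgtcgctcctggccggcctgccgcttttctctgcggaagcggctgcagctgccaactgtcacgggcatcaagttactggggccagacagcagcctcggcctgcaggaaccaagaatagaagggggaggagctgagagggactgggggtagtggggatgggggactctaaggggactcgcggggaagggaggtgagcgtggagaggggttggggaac

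The Hes5 window held 2 RBPJ cores, beginning 226 and 82 bases before the start, on opposite strands. The Hey2 window held 1, at 207 bases before the start, and neither of the 2 Hes6 starts had one. Of all 32851 windows of this length in the table, 21.59% held the core on either strand. The N box, CACNAG, to which Hes repressors bind, was in 36.67% of windows and was found before 1 of the Hes6 starts, at 237 bases, and before neither Hes5 nor Hey2. The class C site, CACGNG, another Hes and Hey site, was in 23.51% of windows and was found before the other Hes6 start, at 157 bases. The E box, CANNTG, was in 66.22% of windows and before all 4 starts. These are matches of letters and not sites shown to be bound. Hes1, Hey1 and Heyl were not among the starts used here.

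Libraries held 16.1 to 28.6 M assigned counts in Ex5 (median 22.2 M) and 19.3 to 29.5 M in Ex4 (median 24.1 M). All 10 PSM markers checked, among them Tbx6, Msgn1, T and Dll3, averaged at least 1 CPM (counts scaled to library size), and their sum was 3605 to 4391 CPM in Ex5 and 3024 to 3786 CPM in Ex4. Sums for 9 markers of anterior PSM and somites were far lower, 65.2 to 96.1 CPM in Ex5 and 55.8 to 79.4 CPM in Ex4, and most of this was Aldh1a2. Neural markers summed to 23.4 to 31.0 CPM in Ex5 and to 38.4 to 49.2 CPM in Ex4, mostly Sox2 and Pax6. No marker in any of the 7 lists was at 0 in every library. No 2 libraries were identical. In a bulk sample of this kind, fewer cells of a type and less RNA per cell cannot be told apart.

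All 6 genes passed the expression filter of at least 1 CPM in at least 16 libraries, as did 11768 genes in all. Per kilobase of exon, the order of the mean levels was the same in both courses. Hes6 (chromosome 1, 91411483 to 91414038, minus strand, mm10) stood highest, with 27.1 ± 3.19 CPM per kb in Ex5 and 24.4 ± 1.80 CPM per kb in Ex4 (SD, n = 16 libraries each, here and in the next 2 sentences). Hes5 (chromosome 4, 154960923 to 154962371, plus strand) followed, with 17.1 ± 6.18 in Ex5 and 13.7 ± 3.52 in Ex4, and then Hes1 (chromosome 16, 30064384 to 30067796, plus strand), with 8.39 ± 3.65 in Ex5 and 8.77 ± 2.72 in Ex4. Hey1 (chromosome 3, 8663359 to 8667256, minus strand) had 3.88 ± 0.79 in Ex5 and 3.04 ± 0.55 in Ex4. Hey2 (chromosome 10, 30832359 to 30842801, minus strand) had 1.99 ± 0.19 CPM per kb in Ex5 and 1.16 ± 0.16 in Ex4, and Heyl (chromosome 4, 123233556 to 123249875, plus strand) came last, with 0.948 ± 0.535 in Ex5 and 0.599 ± 0.123 in Ex4. For scale, Hes7 reached 152 ± 47.0 CPM per kb in Ex5 and 120 ± 28.5 in Ex4. Between neighbours in this order, the ranges of Hey1 and Hey2 did not overlap in either course, and in Ex4 those of Hes6 and Hes5, and of Hes1 and Hey1, were also apart. The other neighbours overlapped. The Hes5 gene lies across an antisense gene, Gm20421, that is not a row of the count table, and since the strand setting of the counting is not given in the sources used here, reads from it cannot be told apart from those of Hes5. The same holds for Hes7, which gives the clock and overlaps the antisense gene 9130213A22Rik, a row of the table.

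**Figure D1:**
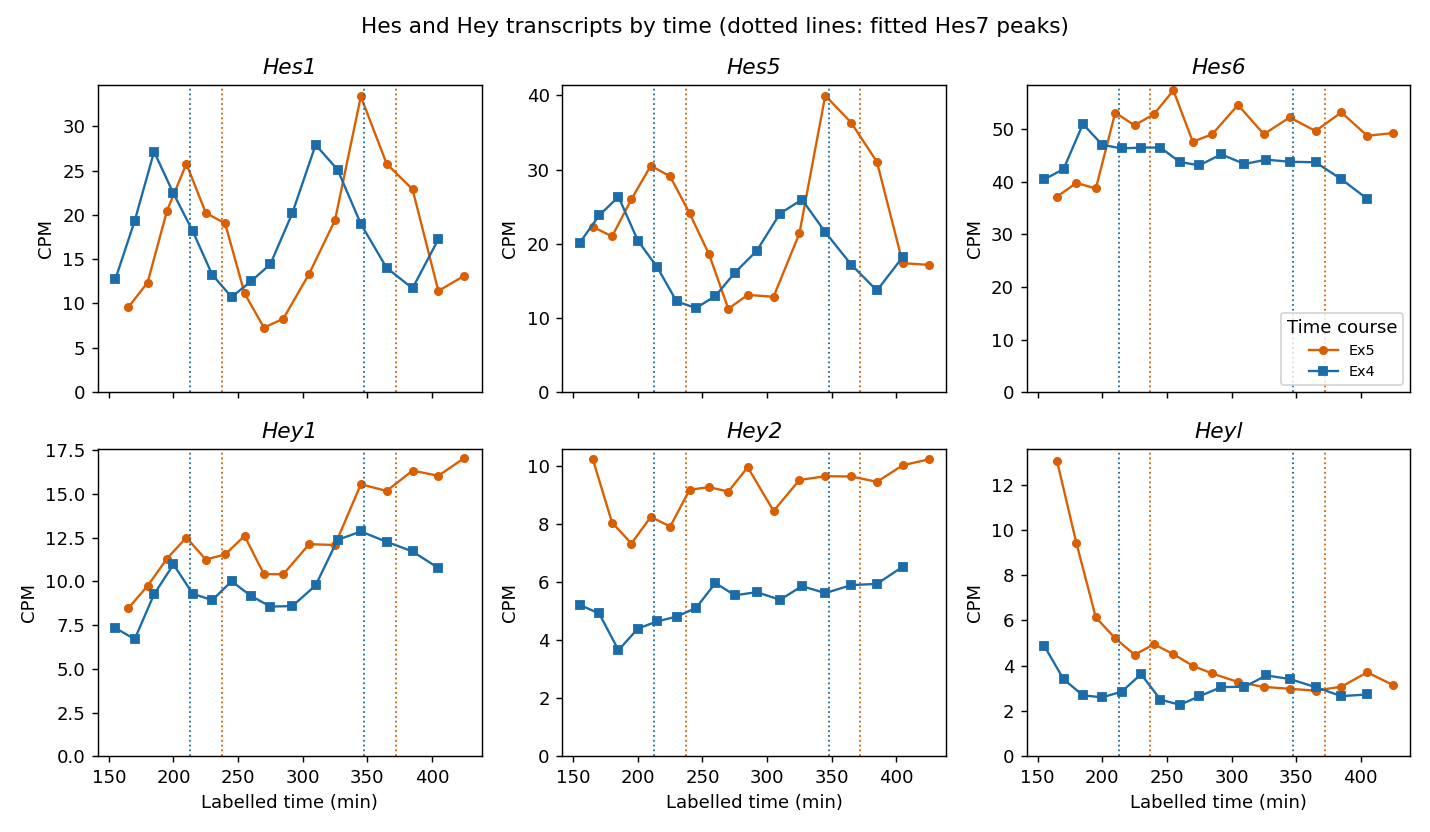
Level of each gene in CPM, counts scaled to library size (y axis), against labelled time in minutes (x axis), 1 point per library, for Ex5 (circles) and Ex4 (squares), with dotted vertical lines at the fitted Hes7 peaks of each course. Hes1 and Hes5 make 2 waves in each course, Hey1 climbs with a shallow wave, Hey2 lies higher in Ex5 at 7.33 to 10.2 CPM than in Ex4 at 3.65 to 6.53 CPM, and Heyl drops over the first libraries of Ex5.

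The first question was which of the 6 cycle with Hes7. Hes1 and Hes5 made large waves ahead of Hes7, Hey1 made a small one close to it, and Hes6, Hey2 and Heyl did not pass the test. The clock came from Hes7 alone: a cosine fitted to its level in all 32 libraries gave a period of 135 min (95% interval 129 to 141 min), with peaks at 237 and 372 min in Ex5 and at 213 and 348 min in Ex4. Each gene was then fitted with a level and a slope per course and a common cosine and sine of the Hes7 phase (edgeR quasi-likelihood F test, Benjamini-Hochberg adjustment over all tested genes). With 1 library per time, the spread comes from deviations around the fitted curves. Nothing in the labels says that the dishes of a course were independent cultures, so p-values cover only the spread between these dishes. By this test 3 of the 6 genes cycled, against 1.36% of all tested genes.

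Hes1, the founding Notch target of the family, ranged from 7.27 CPM at 270 min to 33.4 CPM at 345 min in Ex5, with a median of 16.2 CPM, and from 10.7 CPM at 245 min to 27.9 CPM at 310 min in Ex4, with a median of 17.7 CPM. In Ex5 it stood at 25.8 CPM at 210 min, dropped to 7.27 CPM at 270 min, stood at 33.4 CPM at 345 min and was back at 11.4 CPM at 405 min. In Ex4 it stood at 27.1 CPM at 185 min, at 10.7 CPM at 245 min, at 27.9 CPM at 310 min and at 11.7 CPM at 385 min. Both courses thus hold 2 crests and 2 dips, with the crests of Ex5 at later labelled times, as those of Hes7 were. Libraries taken around the middle of the Hes7 rise had 24.7 ± 6.38 CPM of Hes1 in Ex5 (SD, n = 4) and 24.9 ± 3.88 CPM in Ex4 (n = 4), and those taken around the middle of the Hes7 fall had 9.53 ± 2.07 CPM in Ex5 (n = 4) and 12.4 ± 1.28 CPM in Ex4 (n = 5). The lowest of the rising libraries was above the highest of the falling ones in each course. The fitted peak was 2.74 times the trough (log2 1.46 ± 0.10 SE, 32 libraries, edgeR adjusted p = 1.32e-13) and came 25.9 ± 1.40 min before that of Hes7.

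Hes5, also a direct Notch target, ranged from 11.2 CPM at 270 min to 40.0 CPM at 345 min in Ex5, with a median of 21.8 CPM, and from 11.3 CPM at 245 min to 26.3 CPM at 185 min in Ex4, with a median of 18.6 CPM. Its lowest library was the same as that of Hes1 in both courses, and its highest library in Ex5 was too. Around the middle of the Hes7 rise Hes5 had 29.5 ± 7.93 CPM in Ex5 (SD, n = 4) and 25.0 ± 1.28 CPM in Ex4 (n = 4), and around the middle of the Hes7 fall 15.1 ± 3.49 CPM in Ex5 (n = 4) and 13.5 ± 2.26 CPM in Ex4 (n = 5). Again no rising library overlapped a falling one. The fitted peak was 2.20 times the trough (log2 1.14 ± 0.11 SE, edgeR adjusted p = 2.76e-08) and came 25.8 ± 2.16 min before that of Hes7, so Hes1 and Hes5 had the same fitted peak time within their errors. Where both courses were given 1 phase origin by labelled minutes, in place of an origin from Hes7 in each, the Hes5 rhythm no longer passed (adjusted p = 0.0608), while Hes1 still did (log2 1.10, adjusted p = 0.00149).

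Hey1, a Notch target best known from vessels and somites, ranged from 8.46 to 17.1 CPM in Ex5 (median 12.1 CPM) and from 6.70 to 12.9 CPM in Ex4 (median 9.53 CPM). Its wave was much shallower than those of Hes1 and Hes5, and most of its range came from its rise over time. After the slope was removed, the fitted peak was 1.25 times the trough (log2 0.32 ± 0.06 SE, edgeR adjusted p = 0.00412) and came 7.04 ± 4.07 min before that of Hes7, which is within 2 SE of it. In Ex4 it crested at 11.0 CPM at 200 min and at 12.9 CPM at 345 min, with 8.56 CPM between them at 275 min. In Ex5 it held 12.6 CPM at 255 min, 10.4 CPM at 270 and 285 min and 15.6 CPM at 345 min, and then did not turn down. The call was lost in Ex5 alone (1.20-fold, adjusted p = 0.575), in Ex4 alone (1.33-fold, adjusted p = 0.0520), without a slope term (adjusted p = 0.339) and at fixed periods of 120 min (adjusted p = 0.0620) and 180 min (adjusted p = 0.0835). It held with any 1 of the 32 libraries left out (adjusted p 0.00117 to 0.0135).

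**Figure D2:**
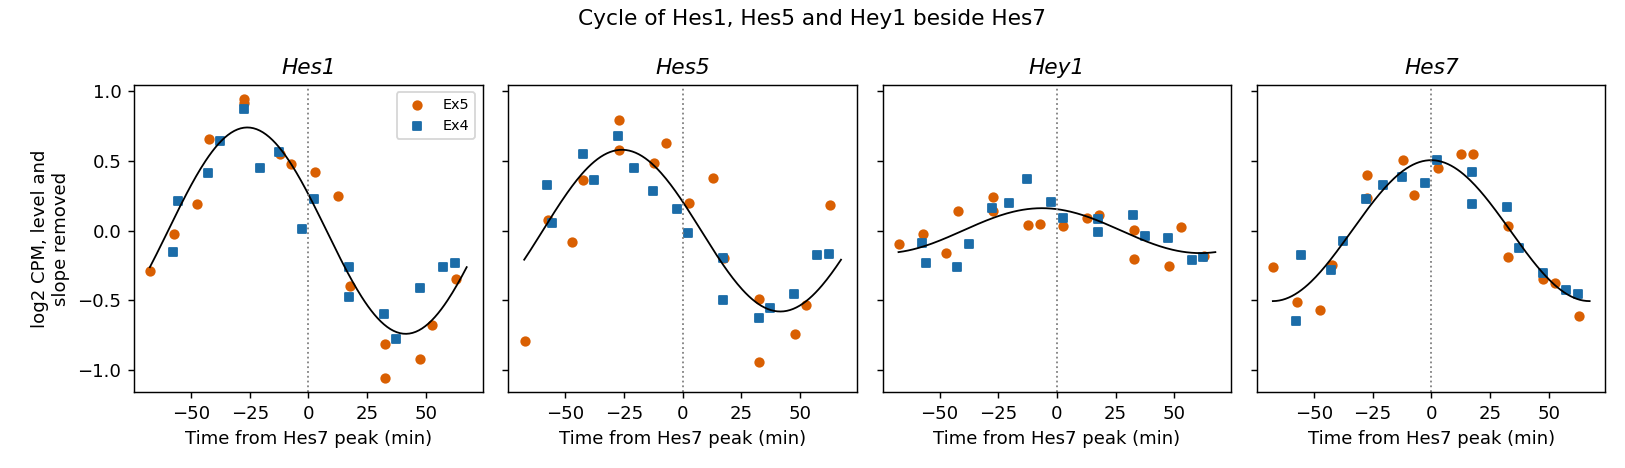
Log2 CPM after each course's level and slope were removed (y axis) against time from the nearest fitted Hes7 peak in minutes (x axis), 1 point per library, Ex5 as circles and Ex4 as squares, with the fitted cosine as a line. Hes1 and Hes5 crest about 26 min before Hes7 (25.9 and 25.8 min), and Hey1 has a log2 wave of 0.32 from trough to peak against 1.01 for Hes7.

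Hes6, Hey2 and Heyl did not pass the rhythm test. Hes6 ranged from 37.2 to 57.4 CPM in Ex5 (median 49.5 CPM) and from 36.8 to 51.0 CPM in Ex4 (median 43.8 CPM), and its fitted wave was 1.15-fold (log2 0.20 ± 0.05 SE, edgeR unadjusted p = 0.00225, adjusted p = 0.113), with a fitted peak 0.228 ± 5.66 min after that of Hes7. It passed without the Ex5 library of 305 min (adjusted p = 0.0137), in which Hes6 stood at 54.6 CPM although Hes7 was near its trough. Without the first 3 libraries of each course, however, the Hes6 wave at the same phase was only log2 0.06 (edgeR adjusted p = 0.990). Hey2 had a fitted wave of 1.12-fold (log2 0.17 ± 0.06, adjusted p = 0.367), whose peak fell 50.3 ± 8.19 min after that of Hes7. Heyl, the least abundant of the 6, had 1.23-fold (log2 0.30 ± 0.15, adjusted p = 0.546). Hey2 and Heyl had 91 to 261 and 46 to 248 counts per library, and the part of depth in these results was not tested. The SE of the log2 wave was 0.06 for Hey2, as for Hey1, and 0.15 for Heyl. A wave of the size fitted to Hey1 was within 2 SE of the estimate for Heyl.

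**Figure D3:**
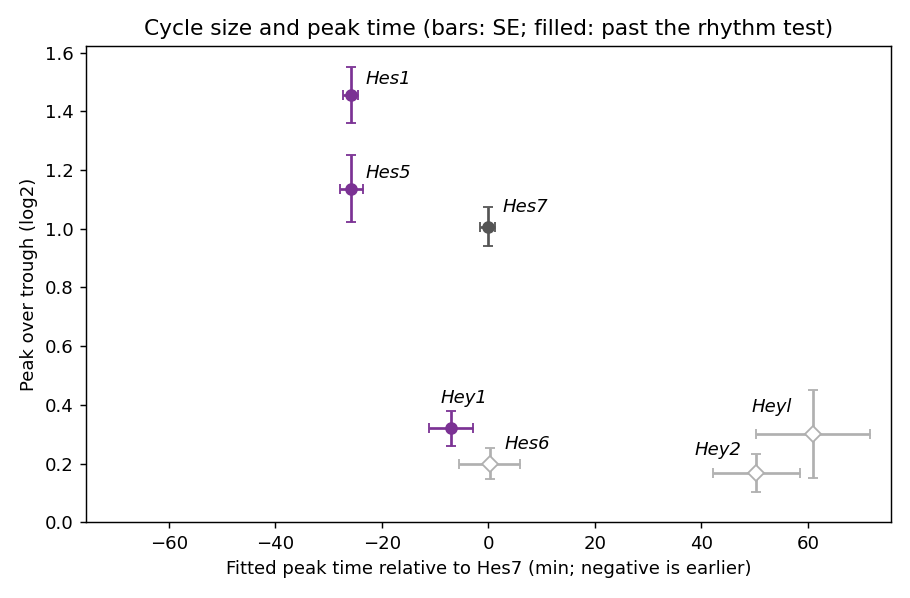
Fitted peak over trough on the log2 scale (y axis) against fitted peak time relative to Hes7 in minutes (x axis, negative is earlier), with bars of 1 SE, where filled circles passed the rhythm test and open diamonds did not. Hes1 (1.46) and Hes5 (1.14) lie together at about −26 min, Hey1 (0.32) and Hes6 (0.20) lie near 0, and Hey2 and Heyl have their fitted peaks 50.3 and 60.9 min after Hes7; Hes7 set the clock, so its own position is a description.

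Without the Hes7 clock, each gene was also given a period of its own, as a description. Hes1 had 134 min (95% profile interval 129 to 139 min), close to the 135 min of Hes7. Hes5 had 149 min (141 to 158 min), but the period was 140 min where time was fitted with a quadratic term. Hey1 had 141 min (126 to 157 min). The share of variation was taken on the Hes7 clock of 135 min and not at these own periods. After level and slope, the cycle on that clock took up 87.6% for Hes1, 73.6% for Hes5 and 51.8% for Hey1. Within each course, the Hes1 period was 139 min (133 to 146 min) in Ex5 and 126 min (122 to 129 min) in Ex4, and that of Hes5 was 153 min (142 to 166 min) in Ex5 and 139 min (132 to 147 min) in Ex4. Hes7 showed the same order, with 140 min (130 to 150 min) in Ex5 and 129 min (122 to 137 min) in Ex4. For Hes6, Hey2 and Heyl the period or its interval ran into the limits of the search at 90 and 240 min, so none is given.

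Ratios of 2 genes in the same library do not depend on how libraries are scaled, and they show whether 2 genes follow the cycle alike. Of 21 ratios, 15 between members and 6 of a member over Hes7, 17 cycled (F test on the log2 ratio, 32 libraries, Benjamini-Hochberg over the 21). The ratio Hes1/Hes7 swung 2.76-fold (log2 1.46 ± 0.10 SE, adjusted p = 6.5e-12), and all 6 ratios over Hes7 passed at the fitted period. The clock was fitted to Hes7 in these same libraries, so the ratio of a flat gene to Hes7 would cycle as well. Hes6, Hey2 and Heyl did not pass the rhythm test, and their ratios peaked 67.4, 65.2 and 66.9 min after Hes7, near its trough. These ratios thus show no cycle of those genes. Hes1, Hes5 and Hey1 differed from Hes7 in size or time of the cycle. A ratio of Hes1 or Hes5 over a gene with a flat or shallow wave would likewise cycle through Hes1 or Hes5. Hes1/Hes6, for example, swung by log2 1.42, against 1.46 for Hes1 alone. The count of 17 thus in large part repeats the rhythm test. Hes1/Hes5 was one of the 4 that did not pass. Its counts gave a ratio of 0.429 in the first Ex5 library, at 165 min, and 0.589 to 1.04 in the later ones, against 0.632 to 1.16 in Ex4, and its fitted wave was 1.25-fold (log2 0.32 ± 0.13 SE, adjusted p = 0.0665). This is close to the threshold: it passed with a quadratic time term (adjusted p = 0.0423), at a fixed period of 120 min (adjusted p = 0.00165) and without 1 of 4 libraries, those of 305 min (adjusted p = 0.0192) and 365 min (adjusted p = 0.0426) in Ex5 and of 230 min (adjusted p = 0.0374) and 345 min (adjusted p = 0.0491) in Ex4. Whether Hes1 swings more widely than Hes5 was not settled by these libraries.

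The other ratios that did not pass were Hes6/Hey1 (adjusted p = 0.267), Hes6/Heyl (adjusted p = 0.207) and Hey2/Heyl (adjusted p = 0.825). Hes6/Hey1 and Hey2/Heyl passed at a fixed period of 180 min (adjusted p = 0.00174 and 0.00932), and Hes6/Hey1 also at 150 min (adjusted p = 0.0389) and with a quadratic term (adjusted p = 0.0102). Hey1/Hey2 cycled 1.40-fold (log2 0.48 ± 0.10 SE, adjusted p = 0.000254), so these close relatives did not follow the cycle alike. Hey1/Heyl cycled 1.42-fold (log2 0.50 ± 0.17, adjusted p = 0.0289). That call was lost without any 1 of 5 libraries, the ones of 165, 225 and 425 min in Ex5 and of 155 and 200 min in Ex4 (adjusted p 0.0522 to 0.0737), with a quadratic term (adjusted p = 0.0792) and at 150 and 180 min (adjusted p = 0.0846 and 0.256).

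Whether the cycle differed between the courses was tested for each gene. Fitted within each course, the Hes1 peak was 3.28 times the trough in Ex5 and 2.33 times in Ex4, and the Hes5 peak 2.41 times in Ex5 and 2.10 times in Ex4. The Hes1 peak came 23.8 min before that of Hes7 in Ex5 and 28.5 min before it in Ex4, and that of Hes5 20.5 min before it in Ex5 and 31.9 min before it in Ex4. None of the 6 passed the test of the difference, and neither did any gene in the table (0% called). Unadjusted, p was 0.00408 for Hes1 and 0.00927 for Hes5 (edgeR, adjusted p = 0.862 for both), and the unadjusted p was under 0.05 for 641 genes. The count of calls was also 0 with DESeq2 and with limma-voom. Hes5 passed without the first 3 libraries of each course (adjusted p = 0.00149), and both Hes1 and Hes5 passed with 1 phase origin for both courses, a setting in which the offset between the courses counts as a difference. The test holds both courses to 1 common period, so it does not cover a difference in period. The Hes1 period intervals given above, 133 to 146 min in Ex5 and 122 to 129 min in Ex4, did not overlap, while those of Hes5 and of Hes7 did. Periods were not tested between the courses.

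The next question was how the genes moved over the sampled hours apart from the cycle. By the mean of the slopes of both courses, 4 of the 6 rose, against 26.9% of all tested genes, and 1 fell, against 26.3%. Hey1 rose most, by 0.29 ± 0.03 on the log2 scale per 100 min (SE, edgeR adjusted p = 2.3e-10). It went up from 8.46 CPM at 165 min to 17.1 CPM at 425 min in Ex5, and from 7.34 CPM at 155 min to 10.8 CPM at 405 min in Ex4, with its highest Ex4 library at 345 min. Hes1 rose by 0.25 ± 0.04 (adjusted p = 1.02e-05), which shows in the upper crest of Ex5 at 33.4 CPM beside the earlier one at 25.8 CPM and less in Ex4, whose crests were 27.9 and 27.1 CPM. At a fixed period of 180 min the Hes1 slope was 0.08 and did not pass (adjusted p = 0.444), and at 120 min it was 0.15 (adjusted p = 0.0269).

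Hey2 rose by 0.13 ± 0.03 log2 per 100 min (edgeR adjusted p = 0.000544), although not in Ex5 alone (adjusted p = 0.115). Hes5 had a slope of 0.13 ± 0.05 (adjusted p = 0.0351), and both the call and its size depend on which libraries enter. It was lost without any 1 of 7: those of 345, 365 and 385 min in Ex5 and of 200, 215, 230 and 405 min in Ex4 (adjusted p 0.0521 to 0.0984). It was also lost with DESeq2 (adjusted p = 0.0603), in Ex5 alone (adjusted p = 0.228) and at fixed periods of 120 min (0.03 log2 per 100 min, adjusted p = 0.734) and 180 min (0.03, adjusted p = 0.650). Without the first 3 libraries of each course the slope was larger, 0.29 (adjusted p = 0.000235). Hes6 had a mean slope of 0.01 ± 0.03 (adjusted p = 0.743).

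Heyl fell, by 0.42 ± 0.07 on the log2 scale per 100 min (SE, edgeR adjusted p = 1.38e-05). It stood at 13.0, 9.40 and 6.13 CPM in the first 3 libraries of Ex5 (165, 180 and 195 min), and from 210 min on at 2.90 to 5.21 CPM. In Ex4 only the first library stood out, with 4.88 CPM at 155 min, and the other 15 had 2.27 to 3.63 CPM. Without the first 3 libraries of each course the slope was −0.12 (adjusted p = 0.128), so the fall rests on the start of the courses, and in Ex4 alone it did not pass (adjusted p = 0.555). Some marker sums of other cells were also higher at the start. That of 6 endothelial and vascular markers was 5.73 CPM in the first Ex5 library, within 3.01 to 5.73 CPM over that course. In Ex4 it was 5.44 CPM in the first library, within 3.83 to 5.70 CPM. The sum of 9 anterior PSM and somite markers was 96.1 CPM in the first and 65.2 CPM in the last Ex5 library, and 79.4 CPM in the first and 55.8 CPM in the last Ex4 library. That of 5 pluripotency markers, nearly all Pou5f1, was 55.9 CPM in the first and 21.8 CPM in the last library of Ex5, and 73.1 CPM in the first and 31.9 CPM in the last library of Ex4. From the first to the last library, neural markers went from 30.4 to 26.3 CPM in Ex5 and from 46.6 to 38.4 CPM in Ex4. Lateral and cardiac mesoderm markers went from 2.31 to 1.77 CPM in Ex5 and from 0.863 to 0.828 CPM in Ex4. Endoderm markers went from 1.84 to 1.33 CPM in Ex5 but from 1.73 to 2.00 CPM in Ex4. The part of these cell types in the Heyl result was not tested.

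The slopes of Hes6 and Heyl differed between the courses, 2 of the 6 genes, against 15.6% of all tested genes. Heyl had a slope of −0.71 log2 per 100 min in Ex5 and −0.12 in Ex4, a difference of −0.58 ± 0.14 (SE, edgeR adjusted p = 0.0037). The difference was −0.41 without the first 3 libraries of each course and still passed (adjusted p = 0.0265). Hes6 had a slope of 0.09 in Ex5 and −0.07 in Ex4, a difference of 0.16 ± 0.05 (adjusted p = 0.0243). It stood at 37.2 to 39.8 CPM in the first 3 libraries of Ex5 and at 47.6 to 57.4 CPM in the 13 later ones, while in Ex4 it was highest at 185 min, with 51.0 CPM, and lowest at 405 min, with 36.8 CPM. Without those first 3 libraries of each course the difference was 0.08 and did not pass (adjusted p = 0.250), and the mean slope of Hes6 was then −0.07 (adjusted p = 0.0160). The difference was also lost without the Ex5 library of 165 min (adjusted p = 0.0656), 180 min (adjusted p = 0.0501) or 195 min (adjusted p = 0.0526), or without the Ex4 library of 405 min (adjusted p = 0.0587).

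**Figure D4:**
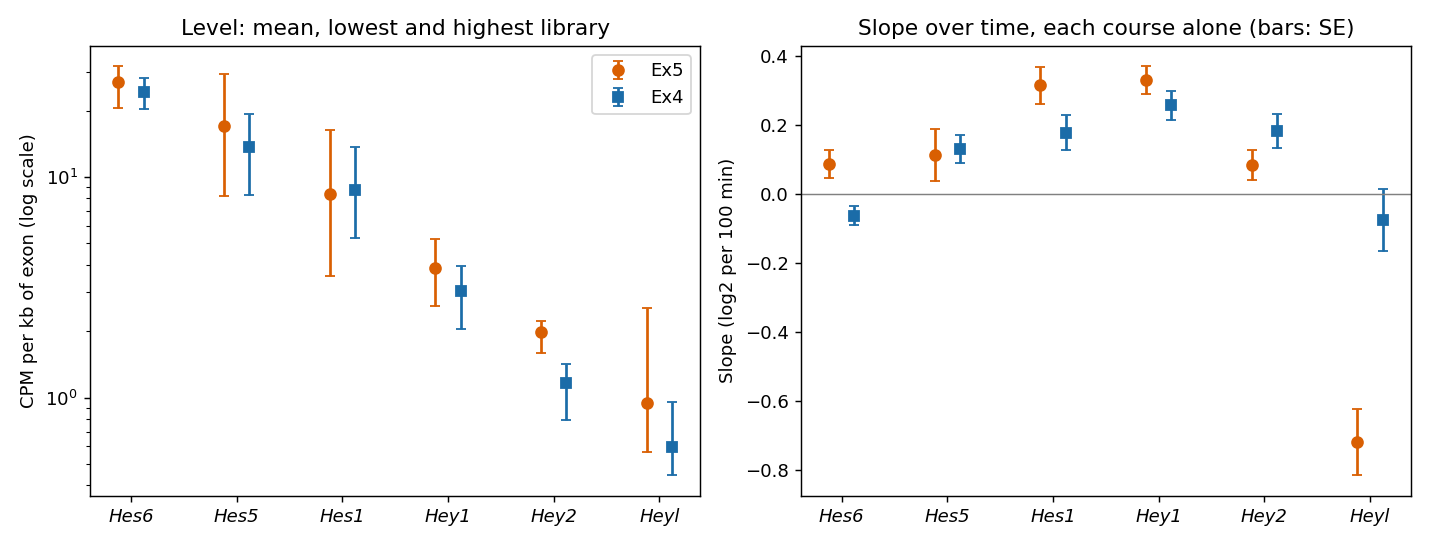
Left, mean level per kilobase of exon on a log scale for Ex5 (circles) and Ex4 (squares), with bars from the lowest to the highest of 16 libraries. Right, slope over time in log2 per 100 min with bars of 1 SE, each course fitted alone. Levels run from Hes6 (27.1 in Ex5 and 24.4 CPM per kb in Ex4) down to Heyl (0.948 and 0.599), and the Heyl slope is −0.72 in Ex5 against −0.08 in Ex4.

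Between the courses, 5 of the 6 genes were higher in Ex5 at the centre time of 285 min, against 27% of all tested genes, and 0 were lower, against 28.2%. Hes7 was higher in Ex5 too, by log2 0.33 ± 0.05 (SE, edgeR adjusted p = 1.46e-07). So were Dll1, Lfng and Nrarp of the Notch genes described below, by log2 0.43, 0.36 and 0.48, while 14 of those 44 genes were lower. Of the 6, Hey2, known for its role in the heart and great vessels, differed most. It had 7.33 to 10.2 CPM in Ex5 (median 9.36 CPM) and 3.65 to 6.53 CPM in Ex4 (median 5.47 CPM), so that every Ex5 library was above every Ex4 library. The difference was 1.69-fold (log2 0.76 ± 0.04 SE, edgeR adjusted p = 2.63e-17). Heyl averaged 4.84 ± 2.74 CPM in Ex5 and 3.06 ± 0.63 CPM in Ex4 (SD, n = 16 each), a difference of log2 0.53 ± 0.11 (adjusted p = 9.66e-05). From 305 min on its levels in the courses overlapped, at 2.90 to 3.71 CPM in Ex5 and 2.66 to 3.57 CPM in Ex4, and with a quadratic time term the difference was 0.29 (adjusted p = 0.0485).

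Hey1 averaged 12.7 ± 2.59 CPM in Ex5 and 9.91 ± 1.79 CPM in Ex4 (SD, n = 16 each), a difference of log2 0.32 ± 0.04 (SE, edgeR adjusted p = 6.7e-08). Hes5 averaged 23.2 ± 8.42 CPM in Ex5 and 18.7 ± 4.80 CPM in Ex4, a difference of log2 0.29 ± 0.08 (adjusted p = 0.00183) that did not pass with a quadratic time term (0.23, adjusted p = 0.0521). Hes6 averaged 49.0 ± 5.76 CPM in Ex5 and 44.1 ± 3.25 CPM in Ex4, a difference of log2 0.16 ± 0.04 (adjusted p = 0.000332). The ranges of these 3 genes overlapped between the courses. Hes1 averaged 17.1 ± 7.43 CPM in Ex5 and 17.9 ± 5.54 CPM in Ex4 and did not pass (log2 −0.11 ± 0.06, adjusted p = 0.160). Neural markers, which moved the other way, had lower sums in Ex5 than in Ex4, and the part of neural cells in the Hes5 and Hes6 values was not tested. The median difference over all tested genes was log2 −0.00364 with TMM factors and −0.00242 with DESeq2 size factors. The labels name no difference between the courses besides their names and times, so any batch and the course cannot be told apart.

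The genes around them in the pathway were followed with a list of 50 symbols of Notch and helix-loop-helix genes. Of the symbols, 49 had a row and 45 were tested, 44 beside Hes7. Of these 44, 10 cycled, against 1.36% of all tested genes, 21 rose, against 26.9%, and 9 fell, against 26.3%. In Ex5, 12 were higher, against 27%, and 14 lower, against 28.2%, and 8 differed in slope, against 15.6%, so that these last 3 counts were near the background. Their median fold of peak over trough was 1.07, against 1.05 over all tested genes and 1.24 over the 6 members, and their median slope was 0.06 log2 per 100 min, against −0.0011 over all tested genes and 0.13 over the 6.

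Among receptors and ligands, Notch1 cycled 1.20-fold with its peak 0.859 ± 3.98 min before that of Hes7 and rose by 0.26 log2 per 100 min, and the ligand gene Dll1 cycled 1.17-fold, 15.9 ± 3.06 min before Hes7. In all 1 of 4 receptors and 1 of 4 tested ligands cycled. Lfng, a fringe enzyme that adds sugars to Notch receptors, had the widest swing of the list, 3.15-fold, against 2.74-fold for Hes1. Nrarp, a Notch target that limits Notch signalling in the nucleus, cycled 1.42-fold, 0.770 ± 1.97 min before Hes7, and rose by 0.32 log2 per 100 min. Of 5 tested genes of the Groucho/TLE family, Aes among them, 2 cycled. Tle1 cycled 1.24-fold with its peak 15.8 ± 2.53 min after that of Hes7 (edgeR adjusted p = 1.37e-06), and Tle3 cycled 1.13-fold.

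The Id proteins lack a DNA-binding region and pair with other helix-loop-helix proteins. Id2, Id3 and Id1 cycled 1.41-fold, 1.38-fold and 1.23-fold, with peaks 16.1 ± 2.48, 23.7 ± 3.89 and 22.1 ± 5.00 min before that of Hes7. Id2 was also the steepest riser of the list, at 0.36 log2 per 100 min. None of 6 modulators of Notch signalling passed the rhythm test. The steepest falls of the list were in Hes3, Dtx1 and Aes, at −0.80, −0.43 and −0.31 log2 per 100 min. Hes3, another Hes repressor, averaged 0.562 CPM in Ex5 and 2.52 CPM in Ex4. Its difference of log2 −2.25 ± 0.14 was opposite in sign to that of 5 of the 6 members. The Ex5 mean lay under the 1 CPM of the filter, so Hes3 met the filter mainly through Ex4, and this difference was not independent of it. Bhlhe40, a tested relative, averaged 7.29 CPM in Ex5 and 3.87 CPM in Ex4, a difference of log2 0.90 ± 0.09, with the sign of those 5 members. Of the other relatives, Hes2, Helt and Bhlhe41 were too low to test.

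Last, each gene was set beside all others by Pearson's r over the 32 libraries after level and slope were removed, among genes of at least 5 CPM. These are descriptions: all points share their libraries, and in the cycling genes they share the cycle. Hes1 and Hes5 were each other's nearest gene of 9983 (r = 0.89, Spearman's rho 0.87), followed for Hes1 by Klf10, a zinc finger transcription factor (r = 0.80), and Pim1, a serine/threonine kinase (r = 0.79), and for Hes5 by Egr1, an immediate early gene (r = 0.79), and Klf10 (r = 0.75). Hey1 was nearest to Sox4, Elmsan1 and Jade1 (r = 0.76 each), which cycled 1.16-fold, 1.13-fold and 1.24-fold and peaked 4.15, 8.82 and 6.30 min before Hes7. With Hes7, r was 0.72 for Hey1 and 0.72 for Hes6, but 0.41 for Hes1 and 0.32 for Hes5, whose waves run ahead of it.

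Hes6 was nearest to Pcbp1, an RNA-binding protein gene (r = 0.92), Lmnb1, which encodes a nuclear lamin (r = 0.90), and Dbn1, which encodes an actin-binding protein (r = 0.90). None of these 3 passed the rhythm test (adjusted p 0.134 to 0.353). Heyl was nearest to Eif1b (r = 0.80), the kinase gene Camkk1 (r = 0.78) and the homeobox gene Hoxb9 (r = 0.78). Hey2 had no gene as near, with Ddx58, an RNA sensor, Med17, a Mediator subunit, and Acta2, a smooth muscle actin, at r = 0.65, 0.64 and 0.62. Between the members themselves, the lowest r was that of Hes6 and Heyl (r = −0.59, Spearman's rho −0.49), followed by Hey1 and Hey2 (r = −0.53, rho −0.57). By rho their order was reversed. Hes5 and Hes6 had an r of 0.02. The median r to all genes compared was within −0.05 to 0.06 for each of the 6.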

How the data were processed

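RNA was measured in 32 libraries. Per the labels' protocols, they were made with a strand-specific mRNA kit, and per the submitters' processing notes the deposited table of raw counts per gene symbol involved bcl2fastq 2.17.1.14, cutadapt 1.14, HISAT2 2.1.0, HTSeq 0.6.1 and mm10. Neither the annotation nor the strand setting is given in the sources used here. Of the 21886 genes, 3706 were 0 in every library, and 0 columns were left unused. Here, CPM used TMM factors (edgeR 4.0.16, R 4.3.3; prior count 0.5), and models were fitted to the counts of 11768 genes, with slopes per 100 min, centred at 285 min, and a threshold of 0.05. The Hes7 period was searched over 90 to 240 min at every 1 min. Standard errors of cycles derive from F and leave out the error of the clock. Alternatives included DESeq2 1.42.0, limma-voom (limma 3.58.1), other filters, periods and trends, counts thinned to the smallest library, and each library left out. The fits were tested on simulated data. Exon lengths and positions come from GENCODE M21 and promoter sequences from RefSeq. The 6 members and the lists were chosen with earlier results of these data known. Named genes followed a rule. They were the 6 members, the 3 genes nearest to each, and up to 8 of the pathway list with the largest cycles. Of that list, up to 3 rising and 3 falling past the test were also named. Hes2, Helt, Bhlhe40, Bhlhe41, Tle3 and single markers were named after their values were seen.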

Additional observations from a re-analysis of the deposited data

Results flagged for a closer look

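The slopes over time of 2 of the 6 genes differed between the courses by a test of the difference itself (edgeR quasi-likelihood test over all tested genes). For Heyl the slope in Ex5 minus that in Ex4 was −0.583 log2 per 100 min (adjusted p = 0.0037), with −0.71 in Ex5 and −0.12 in Ex4, and it ranged from −0.70 to −0.44 with each library left out in turn. For Hes6 the slope in Ex5 minus that in Ex4 was 0.157 log2 per 100 min (adjusted p = 0.0243), with 0.09 in Ex5 and −0.07 in Ex4, and it ranged from 0.13 to 0.18 with each library left out in turn. The Hes6 call was lost without the Ex5 library of 165, 180 or 195 min or the Ex4 library of 405 min (adjusted p 0.0501 to 0.0656), and without the first 3 libraries of each course the difference was 0.08 (adjusted p = 0.250).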

How the results depend on the processing

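Of the 6 genes, 5 were higher in Ex5 under each alternative that leaves out 1 library, and 4 to 5 under the others: Hes5 did not pass with a quadratic time term, and a filter of 5 CPM leaves Heyl untested. Taking the time point number as a replicate block, in place of level and slope terms, also left 5, with 6040 calls over all genes against 6498. In each course the number marks another labelled time. Deviations of same-numbered libraries from the course means had correlations of 0.0492 to 0.545, and 5 of 32 libraries correlated best with their own number, so they were not taken as paired. The cycle was called in 2 to 4 of the 6 under the alternatives and in 3 to 4 with 1 library left out. The trend was called in 3 of them at a fixed period of 180 min and in Ex5 alone, against 5. The slope difference was called in 1, against 2, with the filter of 5 CPM and without the first 3 libraries of each course, and in 1 to 2 with 1 library left out. The difference in cycle was called in 2 with 1 phase origin and in 1 without the first 3 libraries.

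Over all genes, 160 cycled, against 63 without a slope term, 69 with 1 phase origin, 53 in Ex5 alone, 40 in Ex4 alone, 93 without the first 3 libraries, and 120 to 244 with 1 library left out, the most without the Ex5 library of 305 min. Differences in cycle numbered 2 without a filter, 3 at 180 min, 24 with 1 phase origin and 1 without the first 3 libraries. Slope differences numbered 856 without the first 3 libraries against 1841, and trends 3757 in Ex4 alone against 6269. Leaving out those first 3 libraries, or the libraries of 405 min in Ex4 and 305 min in Ex5, was chosen after seeing the data.

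Signs turned in values that had not passed. The slope difference of Hes5 was −0.00318 with DESeq2, −0.0383 without the first 3 libraries and −0.0450 to 0.0832 with 1 library left out, and that of Hey1 was −0.000982 after thinning. The mean slope of Hes6 was −0.0638 in Ex4 alone, −0.0653 without the first 3 libraries and −0.00532 to 0.0211 with 1 library left out. The projection of an alternative's cycle on the reported one was below 0 for Heyl at 180 min (−0.0740), in Ex4 alone (−0.0310) and without the first 3 libraries (−0.229), and for the ratios Hes1/Hes5 (−0.131) and Hes6/Heyl (−0.0497) at 180 min. The same held for the difference in cycle of Hes6 without the first 3 libraries (−0.0245) and of Hey1 (−0.0603) and Hey2 (−0.0174) with 1 phase origin. The cause was not tested.

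The limits are those of 1 library per time, 1 reporter line and a clock read from 1 gene. Each course spans just under 2 periods. Counting error weighs most on Heyl, which had as few as 46 counts in a library.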
